A study of Mus musculus with 11 samples.

Results

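The Notch receptor genes Notch1, Notch2 and Notch3, the ligand genes Dll1, Dll3, Dll4, Jag1 and Dner, and the Fringe genes Lfng and Mfng were followed as 10 of the 39179 genes in a table of RNA-seq read counts. They were chosen by symbol, as members of the Notch ligand and receptor system, and all 10 were found and passed the filter on low counts. The RNA came from GFP-positive cells sorted from the V-SVZ (ventricular-subventricular zone), a germinal layer along the lateral ventricles, of CD1/Swiss mice at postnatal day 2. All animals carried Gsh2-Cre and the RCE reporter allele, so GFP marks cells descended from progenitors in which the Gsh2 promoter drove Cre. The 6 control libraries were Zeb2fl/wt and the 5 mutant libraries Zeb2fl/ko. Cre would also delete the floxed allele of the controls, so the sorted control cells are expected to keep 1 working allele of Zeb2 and the sorted mutant cells none, while the null allele of the mutants is present in every cell of the animal. Whether each library came from a separate animal is not given in the labels, so a p-value here speaks of the spread among libraries, which may be technical.

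Notch signalling passes between touching cells. A ligand of the Delta-like or Jagged type on 1 cell binds a Notch receptor on its neighbour, the receptor is cleaved, and its intracellular part enters the nucleus, where it joins the DNA-binding protein RBPJ and switches on repressor genes of the Hes and Hey families. In the embryonic and postnatal forebrain this keeps radial glia and neural stem cells from differentiating, while cells that begin to form neurons carry ligands such as DLL1. Fringe enzymes add N-acetylglucosamine to O-linked fucose on the receptor and thereby change how well it responds to Delta-like and to Jagged ligands.

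The bases upstream of 4 of these genes are shown first, because 2 of the genes rose in the mutants (Dner and Dll4), 1 is the ligand gene most used as a mark of neurogenic progenitors (Dll1) and 1 holds a match to the RBPJ motif (Lfng). They are RefSeq start sites on GRCm38.p6, 5′ to 3′ on the gene's own strand, and start 250 bases before the annotated start. RefSeq promoter sequences matched 9 of the 10 genes and Mfng was the gene without a match. Capitals mark matches on either strand to CACCT, the core of the site bound by ZEB proteins, to CACCTG, which contains it, to the E-box CAGCTG and to GTGGGAA, the RBPJ motif. The Dner window is chr1:84696222-84696471 on the minus strand, the Dll4 window chr2:119325534-119325783 on the plus strand, the Dll1 window chr17:15376933-15377182 on the minus strand, upstream of the outer of its annotated starts, and the Lfng window chr5:140607091-140607319 on the plus strand, ended where the first exon begins.
Dner: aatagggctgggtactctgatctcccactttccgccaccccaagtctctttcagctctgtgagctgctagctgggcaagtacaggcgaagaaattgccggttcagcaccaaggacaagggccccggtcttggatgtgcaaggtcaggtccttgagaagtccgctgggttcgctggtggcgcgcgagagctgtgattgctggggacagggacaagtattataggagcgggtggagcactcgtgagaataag
Dll4: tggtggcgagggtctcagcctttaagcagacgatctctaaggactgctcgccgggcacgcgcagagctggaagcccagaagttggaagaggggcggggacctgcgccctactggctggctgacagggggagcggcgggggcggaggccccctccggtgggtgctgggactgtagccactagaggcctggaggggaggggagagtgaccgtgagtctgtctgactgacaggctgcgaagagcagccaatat
Dll1: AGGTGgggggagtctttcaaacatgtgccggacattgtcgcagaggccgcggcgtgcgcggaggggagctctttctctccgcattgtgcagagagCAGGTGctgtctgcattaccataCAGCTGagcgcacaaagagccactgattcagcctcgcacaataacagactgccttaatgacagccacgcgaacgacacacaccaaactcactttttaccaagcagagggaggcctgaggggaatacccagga
Lfng: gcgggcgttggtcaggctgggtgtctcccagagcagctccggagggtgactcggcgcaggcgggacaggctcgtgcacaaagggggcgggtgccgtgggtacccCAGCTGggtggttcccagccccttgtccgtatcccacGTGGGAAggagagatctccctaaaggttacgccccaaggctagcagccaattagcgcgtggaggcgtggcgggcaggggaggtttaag

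None of the 4 motifs was found in the 250 bases upstream of Dner or Dll4. The Dll1 window holds AGGTG, the reverse complement of CACCT, at its first base, a CAGGTG that begins 155 bases before the start, and a CAGCTG that begins 132 bases before it. The window of the other annotated Dll1 start, chr17:15375824-15376073, holds none of the 4 motifs. In Lfng the CAGCTG begins 146 bases and the GTGGGAA 109 bases before the start. Of the windows not shown, those of Notch1, Notch2 and Notch3 hold none of the 4 motifs. The Dll3 window, which lies within exons of Dll3, holds matches to CACCTG at 228 and to CAGCTG at 7 bases before the start. The Jag1 window holds matches to CACCT at 235 and to CAGCTG at 82 bases before the start. Among the 32851 windows of 250 bases in the same table, CACCT was found in 46% and CACCTG in 17.2%. CAGCTG was found in 13% and GTGGGAA in 5.42%. The matches describe the letters of these windows only.

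Libraries held 6833981 to 13073505 counts. Levels are given as CPM, counts scaled to a common library total, after TMM factors that adjust for the composition of each library. Zeb2 itself stood at 154 to 281 CPM in controls and 214 to 365 CPM in the mutants (adjusted p = 0.294), in a gene-level count that includes exons outside the deleted part and so does not check the genotype. Counts of 4 Y-linked genes were present in control libraries 1, 2, 3 and 6 and were 0 in controls 4 and 5 and in every mutant, so sex and genotype are partly confounded. Gsx2, the gene whose promoter drives Cre, was present at 13.3 to 32.1 CPM in every library, and Dlx1 and Dlx2, factors of the same ventral lineage, at 571 CPM or more. Control 6 held the highest sum of 7 oligodendrocyte precursor markers (2552 CPM, against 878 to 1412 CPM in the other controls and 644 to 1026 CPM in the mutants), and mutant 5 held 215 CPM of 8 ependymal and choroid plexus markers, nearly all of it Ttr, where no other library passed 13.7 CPM.

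In the mutants the ligand genes Dner and Dll4 rose and the Fringe gene Mfng fell, while the 3 receptor genes, the ligand genes Dll1, Dll3 and Jag1 and the Fringe gene Lfng did not pass the test. These 3 of 10 genes compare with 4.42% of the 14104 genes tested (adjusted p under 0.05, edgeR's quasi-likelihood test with Benjamini-Hochberg adjustment over all of them). By direction, 2.68% of all genes tested were higher in the mutants and 1.74% lower. In the same 3 genes every mutant library lay outside the range of the controls, which was so for 4.91% of all genes tested (2.89% higher and 2.03% lower in the mutants). The median log2 fold change was -0.02 over the 10 genes and -0.02 over all genes tested. By role, the median was -0.42 over the 3 receptor genes, 0.43 over the 5 ligand genes and -0.87 over the 2 Fringe genes. With 10 genes, chosen with earlier results of these data known, these shares are a description of the set. Notch4, Jag2 and Rfng, the remaining receptor, canonical ligand and Fringe gene, lie outside the 10 and did not pass.

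**Figure D1:**
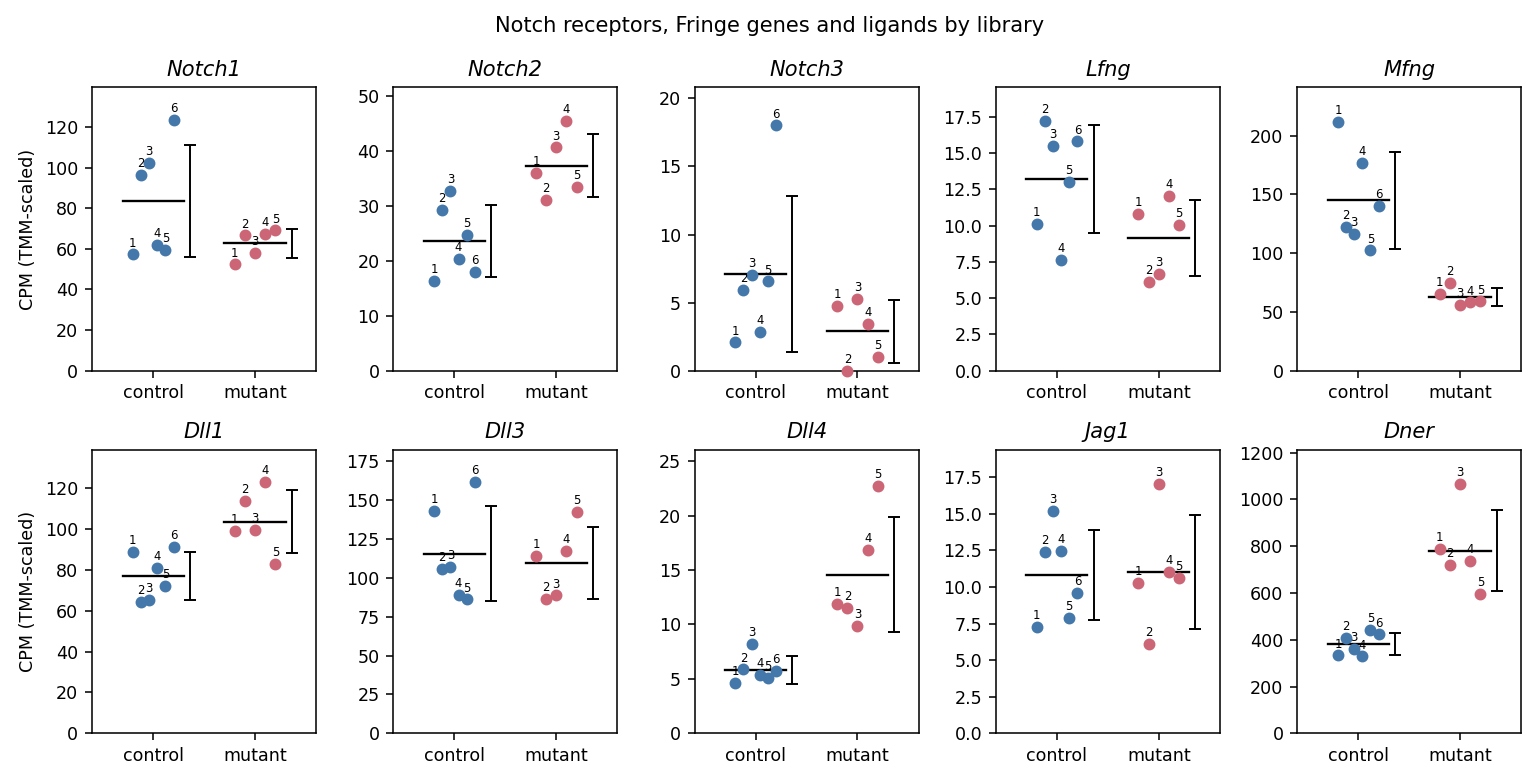
TMM-scaled CPM of the 10 genes in each of the 6 control (blue) and 5 mutant (red) libraries; small numbers are the replicate numbers, horizontal lines the group means and bars 1 SD. Dner and Dll4 lie higher in every mutant than in any control and Mfng lower, whereas the groups overlap in the other 7 genes.

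Among the ligands, Dner changed with the smallest adjusted p of the 10 genes. Dner (ENSMUSG00000036766, chromosome 1, 84369839 to 84696221, minus strand, GRCm38) encodes a neuronal transmembrane protein with EGF-like repeats that acts as a non-canonical Notch ligand and lacks the DSL domain of the Delta-like and Jagged proteins. It stood at 333, 408, 360, 329, 442 and 423 CPM in controls 1 to 6 and at 787, 719, 1065, 736 and 595 CPM in mutants 1 to 5. The lowest mutant library, mutant 5, was above the highest control, control 5. The mean went from 382 ± 48.3 CPM (SD, n = 6) to 780.3 ± 174 CPM (SD, n = 5), a log2 fold change of 1.03 (SE 0.135, adjusted p = 0.000375, edgeR's quasi-likelihood test). Among the libraries without Y-linked counts (2 controls against 5 mutants) it was 1.03 as well (adjusted p = 0.0424). In the lineage marker list Gad2, which encodes an enzyme that makes GABA, went in the same direction (log2 fold change 1.01, adjusted p = 0.000894), and was the only one of the 10 markers of that list to pass. Of these 10 markers 7 had negative log2 fold changes, and the median was -0.13. The part that a changed mix of cells has in the Dner difference was not tested, and in bulk RNA more cells of a type cannot be told apart from more RNA per cell.

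Dll4 (ENSMUSG00000027314, chromosome 2, 119325784 to 119335962, plus strand) encodes a Delta-like ligand best known from endothelial tip cells. It was low in every library, at 4.61, 5.87, 8.19, 5.33, 5.11 and 5.73 CPM in controls 1 to 6 and 11.9, 11.5, 9.84, 16.9 and 22.8 CPM in mutants 1 to 5, from 31 to 83 counts per control library and 90 to 274 per mutant library. All mutants lay above all controls, and mutants 4 and 5 were the highest. The mean rose from 5.81 ± 1.25 to 14.6 ± 5.27 CPM (SD, n = 6 and 5; log2 fold change 1.32, SE 0.263, adjusted p = 0.00805, edgeR). The call was lost among libraries without Y-linked counts (log2 fold change 1.49, adjusted p = 0.133) and with the Y-linked level as a covariate (adjusted p = 0.104). Of 12 endothelial markers 8 had a mean under 1 CPM and Tek was at 0 in all 11 libraries. All 12 summed to 23.4 to 74.8 CPM in controls and 28.9 to 84.0 CPM in the mutants, highest in mutant 4, where Slco1c1, which astroglia also express, made up 81.3 CPM. Without Slco1c1 the other 11 summed to 4.34 to 11.6 CPM in controls and 2.70 to 9.91 CPM in the mutants, lowest in mutant 4. The part of these markers in the Dll4 difference was not tested. Exons of the antisense gene Gm14207 overlap 214 bases of Dll4, at a mean of 0.395 CPM.

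Dll1 (ENSMUSG00000014773, chromosome 17, 15367354 to 15376872), whose product is the main Delta-like ligand of neurogenic progenitors, did not pass. Control libraries ranged from 64.4 to 91.3 CPM with a median of 76.5 CPM, and mutants 1 to 5 stood at 99.0, 114, 99.4, 123 and 82.8 CPM. Mutants 1 to 4 lay above the highest control and mutant 5 lay among the controls. The log2 fold change was 0.43 (95% interval 0.13 to 0.72, adjusted p = 0.102, edgeR). Without control 6 and mutant 5, a comparison chosen after seeing the data, it was 0.55 (adjusted p = 0.0336). Among libraries without Y-linked counts it was 0.44 (adjusted p = 0.368), and with the Y-linked level as a covariate 0.40 (adjusted p = 0.511). Fits without 1 library gave adjusted p from 0.0607 to 0.24 (edgeR). Antisense exons of A930024N18Rik overlap 867 bases of Dll1 at a mean of 1.70 CPM.

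Dll3 and Jag1 did not pass, and their groups overlapped. Dll3 (chromosome 7, 28293553 to 28302238), a divergent Delta-like protein that does not activate Notch in neighbouring cells, ranged from 86.1 to 162 CPM in the controls, with a median of 106 CPM, and stood at 114, 86.2, 88.6, 117 and 142 CPM in mutants 1 to 5. Its log2 fold change was -0.07 (95% interval -0.46 to 0.32, adjusted p = 0.889, edgeR). Jag1 (chromosome 2, 137081456 to 137116644), a Jagged ligand gene, ranged from 7.29 to 15.2 CPM in the controls, with a median of 11 CPM, and stood at 10.3, 6.12, 17.1, 11.02 and 10.6 CPM in the mutants. The Jag1 log2 fold change was 0.02 (95% interval -0.57 to 0.62, adjusted p = 0.976).

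Of the Fringe genes, Mfng fell and Lfng did not pass. Mfng, or manic fringe (ENSMUSG00000018169, chromosome 15, 78755882 to 78773475, minus strand), stood at 211, 123, 117, 177, 102 and 140.2 CPM in controls 1 to 6 and at 65.3, 74.6, 56.1, 58.2 and 59.0 CPM in mutants 1 to 5. The controls were widely spread, with libraries 1 and 4 highest, while the mutants lay close together and all below the lowest control. The standard deviation was 28.6% of the mean in controls and 11.98% in the mutants. The mean fell from 145 ± 41.4 to 62.6 ± 7.50 CPM (SD, n = 6 and 5; log2 fold change -1.21, SE 0.179, adjusted p = 0.000915, edgeR). Among libraries without Y-linked counts the log2 fold change was -1.15 (adjusted p = 0.0231).

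Lfng, or lunatic fringe (ENSMUSG00000029570, chromosome 5, 140607320 to 140615545), had a median of 14.3 CPM in the controls (7.63 to 17.2 CPM) and values of 10.8, 6.12, 6.67, 12.1 and 10.1 CPM in mutants 1 to 5. The groups overlapped, with mutants 2 and 3 below the lowest control, and the log2 fold change was -0.53 (95% interval -1.10 to 0.05, adjusted p = 0.334, edgeR). Among libraries without Y-linked counts it was -0.16 (adjusted p = 0.919). Per kb of exon, Mfng exceeded Lfng 6.28-fold to 20.5-fold in controls and 4.25-fold to 10.7-fold in the mutants. The log2 ratio of Mfng to Lfng was 3.28 ± 0.779 (SD, n = 6) in controls and 2.64 ± 0.527 (SD, n = 5) in the mutants, a difference of -0.65 that did not pass an exact two-sided permutation test over the 462 splits (p = 0.169, smallest possible 0.00433). A larger fall of Mfng than of Lfng was therefore not shown. This ratio was chosen with the fall of Mfng known. Without mutant 2 the difference was -0.84 (exact permutation p = 0.0381).

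Rfng, or radical fringe, the remaining Fringe gene, stood at 86.7 to 124 CPM in controls and 92.8 to 114 CPM in the mutants (log2 fold change -0.03, 95% interval -0.27 to 0.22, adjusted p = 0.939, edgeR). As a share of the summed CPM per kb of the 3 Fringe genes, Mfng made up 45.8% to 58.0% in controls and 30.0% to 35.6% in the mutants, and Rfng 38.8% to 47.7% and at least 57.7%. Mfng was the largest share in 5 of 6 controls and Rfng in all 5 mutants. Lfng stayed at 2.80% to 7.53% in controls and 3.27% to 7.40% in the mutants. The sum of the 3 genes was 78.8 to 128 CPM per kb in controls and 64.6 to 74.7 CPM per kb in the mutants.

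**Figure D2:**
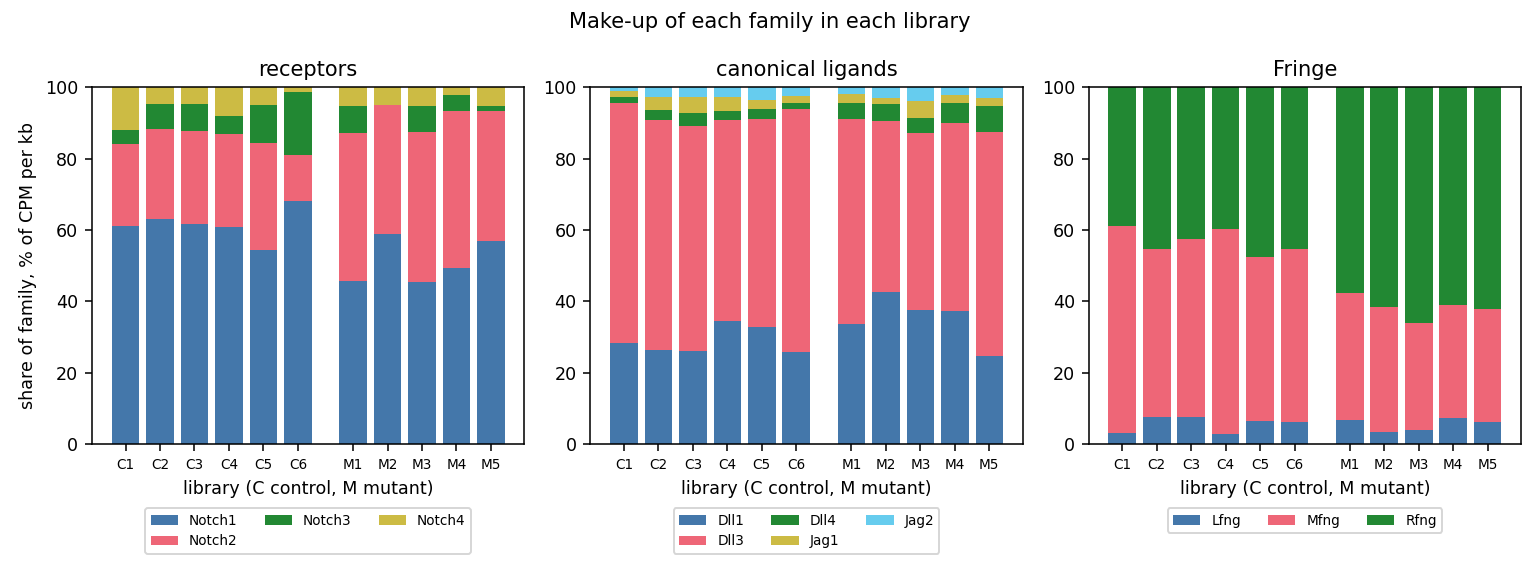
Share of each gene in the summed CPM per kb of exon of its family, in %, for the 4 receptor genes, 5 canonical ligand genes and 3 Fringe genes, with a bar for each of the 6 control (C) and 5 mutant (M) libraries. Mfng takes a smaller share of the Fringe bars in every mutant (at most 35.6%) than in any control (at least 45.8%), and Notch2 a larger share of the receptor bars (at least 36.1% against at most 29.9%).

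None of the receptor genes passed with edgeR, and 1 of 3 had an unadjusted p under 0.05, against 17.3% of all genes tested. DESeq2 called Notch2 (0.66, adjusted p = 0.0254). Notch1 (ENSMUSG00000026923, chromosome 2, 26457903 to 26516663), the main receptor of forebrain progenitors, ranged from 57.3 to 123 CPM in the controls with a median of 79.2 CPM, and stood at 52.3, 66.6, 58.1, 67.2 and 69.1 CPM in mutants 1 to 5. Controls 2, 3 and 6 were high, at 96.4 CPM and above, while controls 1, 4 and 5 lay within the range of the mutants. The log2 fold change was -0.42 (95% interval -0.85 to 0.02, adjusted p = 0.308, edgeR), and 0.05 among libraries without Y-linked counts (adjusted p = 0.946), where only controls 4 and 5 remain. The 3 high controls all held Y-linked counts, as did control 1 at 57.3 CPM.

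Notch2 (ENSMUSG00000027878, chromosome 3, 98013527 to 98150361), a receptor also present in radial glia, stood higher in 4 of 5 mutants than in any control. Control libraries ranged from 16.4 to 32.7 CPM with a median of 22.5 CPM, and mutants 1 to 5 stood at 35.9, 31.0, 40.6, 45.4 and 33.5 CPM, of which mutant 2 lay within the control range. The log2 fold change was 0.66 (95% interval 0.24 to 1.09, unadjusted p = 0.00476, adjusted p = 0.0802, edgeR). It passed when control 3, the highest control, was left out (0.78, adjusted p = 0.0468). Without any other single library it did not pass (adjusted p up to 0.189). Nor did it pass among libraries without Y-linked counts (0.74, adjusted p = 0.204) or with the Y-linked level as a covariate (0.79, adjusted p = 0.292). As a share of the 4 receptor genes per kb, Notch2 made up 13.1% to 29.9% in controls and 36.1% to 44.0% in the mutants, so the shares did not overlap although the levels did. Notch1 made up 54.5% to 68.1% and 45.6% to 58.9%.

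Notch3 (ENSMUSG00000038146, chromosome 17, 32120820 to 32166852), a receptor gene of mural cells and of stem cells, was low and varied most, with a standard deviation of 81.1% of the mean in the controls against 11.7% from counting error alone. It stood at 2.08 to 18.0 CPM in the controls, with a median of 6.26 CPM, and at 4.76, 0, 5.25, 3.45 and 0.997 CPM in the mutants. Mutant 2 held no count, which allows up to 0.301 CPM. Control 6, the library with the highest sum of oligodendrocyte precursor markers, was also the highest for Notch1, Notch3 and Dll3. It was the highest control for Dll1 as well. The log2 fold change of Notch3 was -1.29 (95% interval -2.86 to 0.28, adjusted p = 0.397, edgeR), and -0.76 without control 6 (adjusted p = 0.629). Of 9 mural markers 8 had a mean under 5 CPM, and these 8 summed to 3.57 to 10.6 CPM in controls and 2.71 to 6.45 CPM in the mutants. The remaining marker, Pdgfrb, stood at 9.82 to 38.9 CPM and 12.1 to 17.6 CPM.

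**Figure D3:**
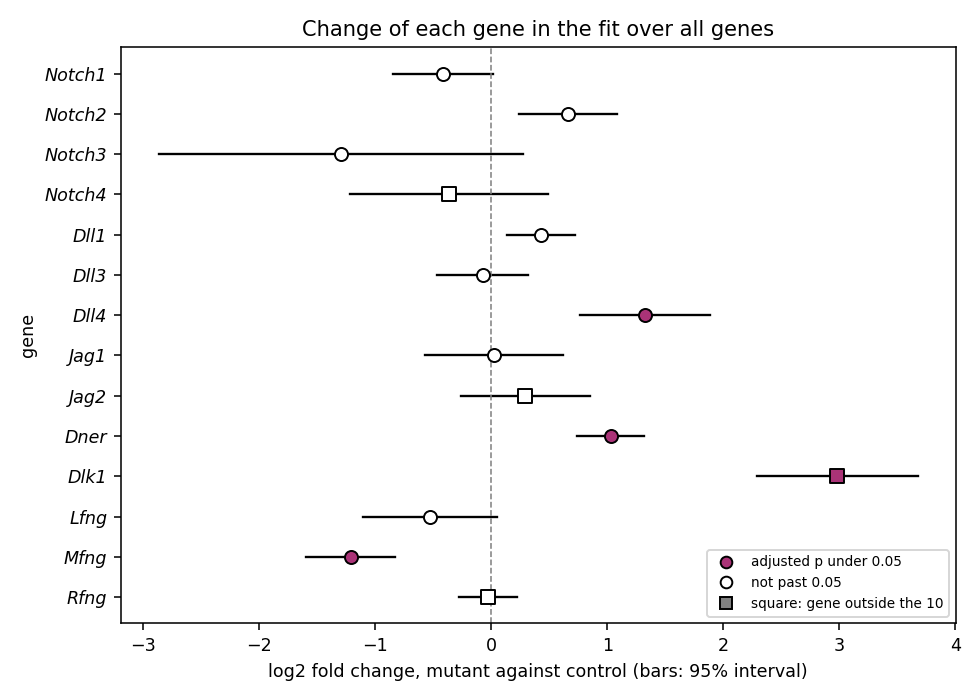
Log2 fold change of mutant against control (x axis) for the 10 genes (circles) and for Notch4, Jag2, Dlk1 and Rfng (squares), with 95% intervals from the fit over all genes; coloured symbols have an adjusted p under 0.05. Dner, Dll4 and Dlk1 lie to the right of 0 and Mfng to the left, and the interval of Notch3, from -2.86 to 0.28, is the widest.

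Levels were compared between genes per kb of exon, using the merged exons of all annotated transcripts. In the controls Dner was highest at 79.9 ± 10.1 CPM per kb, followed by Mfng at 51.1 ± 14.6, Dll3 at 40.5 ± 10.6 and Dll1 at 18.3 ± 2.77 CPM per kb (SD, n = 6). The other 6 genes lay much lower, from Notch1 at 5.87 ± 1.95 and Lfng at 5.27 ± 1.48 through Notch2 at 2.18, Jag1 at 1.85 and Dll4 at 1.51 to Notch3 at 0.875 CPM per kb. Ranges of neighbours in this order overlapped between Dner and Mfng, between Mfng and Dll3, between Notch1 and Lfng, and along the run from Notch2 to Notch3, whereas Dll3 was above Dll1, Dll1 above Notch1 and Lfng above Notch2 in all 6 controls without overlap. In the mutants Dner stood at 163 ± 36.4 CPM per kb (SD, n = 5), above the range of every other gene of the 10. Mfng moved below Dll3 and Dll1, to 22.1 ± 2.64 CPM per kb, with a range that overlapped that of Dll1 (24.6 ± 3.66). Dll4, at 3.79 ± 1.37 CPM per kb, overlapped Notch1, Lfng and Notch2 there.

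Among the canonical ligand genes per kb, Dll3 and Dll1 made up nearly all of the sum in each library. Dll3 took 56.3% to 68.0% in controls and 48.0% to 62.7% in the mutants, and Dll1 25.9% to 34.5% and 24.6% to 42.7%. Dll4 took 1.61% to 3.58% in controls and 4.08% to 7.42% in the mutants. The rise of Dll4 therefore concerned a small share of the canonical ligand transcripts. Jag2, the remaining canonical ligand gene, had a log2 fold change of 0.30 (95% interval -0.26 to 0.85) and Notch4, the remaining receptor gene, of -0.36 (95% interval -1.21 to 0.49). Neither passed (adjusted p = 0.621 and 0.716, edgeR).

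Of 68 further pathway genes in 6 lists, 63 were tested, 2 rose, 0 fell and 61 did not pass, with a median log2 fold change of -0.02. Unadjusted p-values under 0.05 were found for 12 of the 63, against 17.3% of all genes tested, and DESeq2 called 2 lower, Fbxw7 and Gadd45g, and limma-voom 0. Dlk1 (chromosome 12, 109452823 to 109463336), an imprinted gene for a non-canonical Delta-like protein without a DSL domain, had the largest fold change of the 63. It held 6 to 19 counts in each control and 58 to 134 in each mutant, or 1.198 ± 0.372 CPM (SD, n = 6) against 9.59 ± 2.51 CPM (SD, n = 5), with every mutant above every control (log2 fold change 2.98, SE 0.324, adjusted p = 6.99e-05, edgeR). Neurod1, a proneural-type transcription factor gene of neuronal differentiation, rose from 4.76 ± 2.44 to 20.1 ± 9.92 CPM (log2 fold change 2.07, adjusted p = 0.0107), with mutant 2 at 6.72 CPM inside the control range. The Neurod1 call was lost among libraries without Y-linked counts (2.07, adjusted p = 0.136).

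**Figure D4:**
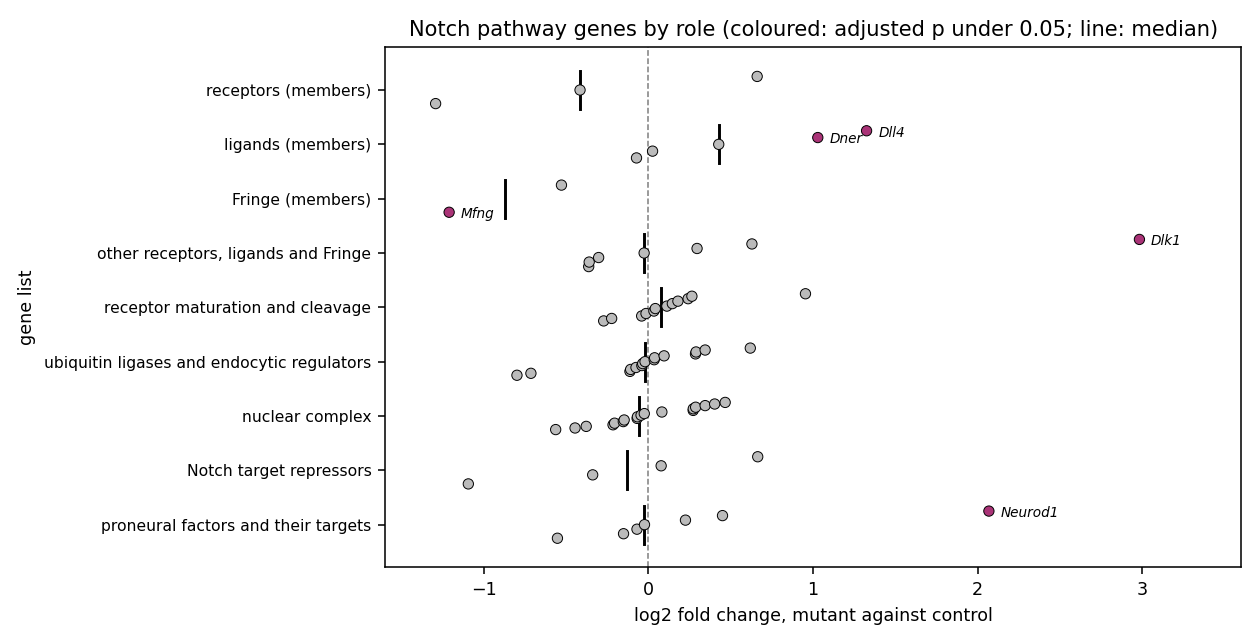
Log2 fold change (x axis) of each tested gene of the 10 (upper 3 rows) and of the 6 further lists, grouped by role; vertical lines are list medians and coloured points passed at an adjusted p of 0.05. The coloured points are Dner, Dll4, Mfng, Dlk1 and Neurod1, and the medians of the 6 further lists lie between -0.13 and 0.08.

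The other roles of the pathway held no gene that passed. Of 12 genes for receptor maturation and cleavage none passed and none had an unadjusted p under 0.05 (median log2 fold change 0.08). Among them was the gamma-secretase gene Ncstn, at 122 to 181 CPM in controls and 145 to 174 CPM in the mutants (log2 fold change 0.11, adjusted p = 0.674). Of 15 ubiquitin ligase and endocytosis genes none passed (median -0.02), and 5 had an unadjusted p under 0.05. Nedd4, a ubiquitin ligase gene, had a log2 fold change of -0.11 (95% interval -0.28 to 0.06), and Dtx3, a Deltex family gene, of 0.34 (95% interval 0.08 to 0.61, adjusted p = 0.151). Fbxw7, the ubiquitin ligase adaptor gene that targets the Notch intracellular part for breakdown, named after its values were seen, stood at 48.0 ± 13.9 and 27.6 ± 7.18 CPM (log2 fold change -0.80, adjusted p = 0.059, edgeR), and passed without control 6 (-0.89, adjusted p = 0.0274) or without mutant 2 (-0.92, adjusted p = 0.0471).

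Of 18 genes of the nuclear complex none passed either and 3 had an unadjusted p under 0.05 (median -0.06). The corepressor gene Hdac2 had a log2 fold change of -0.38 (95% interval -0.67 to -0.09, adjusted p = 0.153) and the corepressor gene Ctbp1 of -0.15 (95% interval -0.46 to 0.16, adjusted p = 0.657). Rbpj, named after its values were seen, stood at 17.1 ± 3.33 CPM in controls and 20.9 ± 4.44 CPM in the mutants (log2 fold change 0.29, adjusted p = 0.507). Of the 5 repressor genes switched on by Notch, 4 were tested, none passed and 1 had an unadjusted p under 0.05. Hes5 stood at 12.9 to 41.7 CPM in controls and 15.2 to 41.2 CPM in the mutants (log2 fold change 0.08, 95% interval -0.60 to 0.75, adjusted p = 0.933), and Hey1 at 30.3 ± 7.43 and 23.9 ± 7.49 CPM (-0.34, 95% interval -0.82 to 0.15, adjusted p = 0.486). Hes1, named after its values were seen, was low throughout, at 5.97 ± 1.34 CPM in controls and 2.78 ± 1.44 CPM in the mutants (log2 fold change -1.09, 95% interval -1.88 to -0.31, adjusted p = 0.119, edgeR). Heyl, outside the filter, stood at 0 to 2.68 CPM in controls and 0 to 2.15 CPM in the mutants (exact two-sided permutation p = 0.779 over n = 6 and 5 libraries). Atoh1, a proneural gene also outside the filter and named after its values were seen, held 0 counts in every control. Mutants 1 to 5 held 9, 0, 3, 29 and 1 counts (exact two-sided permutation p = 0.0303 over n = 6 and 5 libraries, unadjusted). Of the other proneural genes outside the filter, Neurog1 held no count in any library. The groups overlapped for Neurog2 (at most 0.832 CPM in controls and 0.875 CPM in mutants) and Neurod4 (at most 2.25 and 3.50 CPM).

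For each of the 3 genes that changed, the genes with the most similar profile over the 11 libraries were found among 10344 tested genes whose log2 CPM averaged 3 or more. Likeness was the root mean square difference between profiles of log2(CPM + 1), each centred on its own mean, and is a description in which the group difference takes part. Among the closest to Dner were Vsnl1, a neuronal calcium sensor gene (0.123), and Nap1l3, a nucleosome assembly protein-like gene (0.155), against a spread of Dner about its own mean of 0.549. Vsnl1 went from 19.7 ± 4.58 to 44.0 ± 12.03 CPM (SD, n = 6 and 5).

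Closest to Mfng were Cenpm, a centromere protein gene (0.217), Sall1, a zinc finger transcription factor gene (0.219), and Plin2, a lipid droplet protein gene (0.226), against a spread of Mfng of 0.643. Sall1 fell from 92.0 ± 24.3 to 42.3 ± 5.86 CPM (log2 fold change -1.12, adjusted p = 0.00159, edgeR). Profiles close to Dll4 were less alike, with differences of 0.309 for the ephrin gene Efnb3, 0.323 for Faim2, an apoptosis inhibitor gene, and 0.324 for Slc35b4, a nucleotide sugar transporter gene, against a spread of Dll4 of 0.658. Slc35b4 went from 63.6 ± 8.75 to 136 ± 14.6 CPM.

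The summed levels of the marker lists overlapped between the groups. The 10 markers of radial glia and neural stem cells, the cells in which Notch1 and Notch2 are known to act, summed to 1218 to 2031 CPM in controls and 1032 to 1940 CPM in the mutants. Of these 10 markers Hopx rose (0.778 to 1.93 CPM against 3.76 to 10.3 CPM), Vim fell (187 to 298 CPM against 85.2 to 140 CPM) and 8 did not pass. The 5 markers of transit-amplifying progenitors other than Dll1 summed to 199.8 to 476 CPM and 181 to 268 CPM, and the 6 neuroblast markers to 6995 to 9322 CPM and 6529 to 8355 CPM, with Cd24a the 1 neuroblast marker to fall (log2 fold change -0.36, adjusted p = 0.0493). Of the 6 neuroblast markers 4 had negative and 2 positive log2 fold changes, with a median of -0.10. Dcx, 1 of the 2 positive ones, did not pass (0.51, adjusted p = 0.0892, edgeR). The 7 oligodendrocyte precursor markers all had negative log2 fold changes, with a median of -0.79, and 1 of them, Gpr17, fell (-1.44, adjusted p = 0.0295). The 10 microglial markers summed to at most 12.4 CPM and the 5 erythroid markers to at most 5.50 CPM in any library. The part of these shifts in the Notch gene differences was not tested.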

How the data were processed

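The authors deposited 1 table of raw counts, with a row per Ensembl gene and a column per library. Per the submitters' processing notes, the tools were TopHat2 2.0.13 and featureCounts 1.4.6, with mm10 and GRCm38 as builds. The sources used here do not give the annotation release, the strand setting or the handling of multi-mapping reads. Antisense overlaps are stated above for Dll4 and Dll1 only, and other genes named here have them too. Among these are Notch1 (0610009E02Rik, 1068 bases, mean 0.491 CPM) and Notch3 (Gm17276, 488 bases, 0.083 CPM). Others are Hes5 (Gm20421, 433 bases, 0.212 CPM) and Ncstn (Copa, 195 bases, 729.5 CPM, above the level of Ncstn itself). Symbols, coordinates and merged exon lengths came from GENCODE M21 (GRCm38), and 37693 of 39179 identifiers had a symbol.

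Computed from the counts: filterByExpr, TMM factors and edgeR 4.0.16's quasi-likelihood test with robust estimation (R 4.3.3), mutant against control without covariates, with Benjamini-Hochberg adjustment over 14104 genes at 0.05. The method was tested on simulated counts. The simulation gave every gene the same spread beyond counting error and held no sex difference and no outlying library. Its outcome therefore does not cover the effect of sex or of outlying libraries here. Alternatives included other scalings and filters, DESeq2 1.42.0, limma-voom (limma 3.58.1), a Y-linked covariate, libraries without Y-linked counts, a replicate block and leaving out each library. Named genes were the 10 members, Notch4, Jag2, Rfng, the genes of each list past the threshold (up to 4, or else the 2 most abundant per kb) and the 3 most similar profiles per changed member; 2 genes that this rule names are not reported here. The members, lists and tests were chosen with earlier results of these data known. No 2 libraries of a group agreed within sampling noise (lowest chi-square over its degrees of freedom, 13.7). Intervals and the limit allowed by a count of 0 (3 counts) cover what their models hold, the latter counting error only.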

Additional observations from a re-analysis of the deposited data

Results flagged for a closer look

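In 28 groups of 5 or 6 libraries (13 genes and the Mfng to Lfng ratio), 4 libraries stood apart by Dixon's criterion at 95%, where chance gives about 1 in 20 groups. Notch3 was at 18.0 CPM in control 6 against 2.08 to 7.01 CPM in the other controls. Dll4 was at 8.19 CPM in control 3 against 4.61 to 5.87 CPM in the other controls. Notch4 was at 1.73 CPM in mutant 4 against 3.21 to 3.72 CPM in the other mutants. Jag2 was at 5.21 CPM in control 1 against 11.1 to 13.4 CPM in the other controls.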

How the results depend on the processing

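The calls of Dner and Mfng held under all 23 alternatives, with log2 fold changes from 0.89 to 1.14 and from -1.29 to -1.07. Dll4 kept its direction under all 23 and its call under 20, all 11 fits without 1 library among them; its call was lost with the Y-linked covariate, among libraries without Y-linked counts and with the replicate block (1.28, adjusted p = 0.0673). The replicate block, over 10 libraries, also ended the calls of Neurod1 (1.80, adjusted p = 0.0609) and Cenpm (-0.94, adjusted p = 0.0616). Both fits on Y-linked counts ended the calls of Neurod1, Cenpm, Faim2, Vsnl1, Nap1l3 and Plin2. Same-numbered libraries did not deviate together (r from -0.18 to 0.02 over 5 pairs), so the numbers were not taken as pairs.

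Higher members numbered 2, but 4 with DESeq2, which added Dll1 (0.43, adjusted p = 0.0403) and Notch2 (0.66, adjusted p = 0.0254), and 1 with the Y-linked covariate, without Y-linked libraries or with the block; fits without 1 library gave 2 to 3. Lower members numbered 1 throughout. Higher pathway genes numbered 2, and 1 in those same 3 fits; lower ones numbered 0, with 2 for DESeq2 (Fbxw7 and Gadd45g) and 0 to 1 without 1 library. Over all genes, 378 higher and 245 lower calls became 613 and 495 with DESeq2, 120 and 66 with the Y-linked covariate and 150 and 68 without Y-linked libraries; 143 were lower with the block, and fits without 1 library gave 269 to 405 higher and 149 to 251 lower, with the lower count at 162, 156, 149 and 160 without control 4, mutant 1, mutant 3 and mutant 4. The Mfng to Lfng difference ranged from -0.84 to -0.43 without 1 library.

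Signs turned only in genes that had not passed. With the Y-linked covariate and without Y-linked libraries these were Notch1 (0.0227, 0.0526), Dll3 (0.27, 0.33), Rfng (0.0132, 0.0417) and Ctbp1 (0.0152, 0.0615). With the block they were Dll3 (0.0405), Jag1 (-0.0188) and Rfng (0.0043), with limma-voom Jag1 (-0.0333), and without control 6 and mutant 5 Rfng (0.0065). Without 1 library Dll3 ranged from -0.19 to 0.0462, Jag1 from -0.18 to 0.18, Rfng from -0.0764 to 0.0270 and Hes5 from -0.18 to 0.32. The causes were not tested. Genes of few counts, such as Notch3, Dlk1 in controls and Heyl, are limited by depth.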
